A study of Mus musculus with 12 samples.

Results

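Gene expression in the cerebral cortex and in the hippocampus of mice was compared over 12 one-colour arrays, of which 4 carried cortex RNA and 8 carried hippocampus RNA. A gene was kept when its lowest value in one region exceeded its highest value in the other, so that every array of the brighter region lay above every array of the dimmer region, and genes of the X and Y chromosomes were left out. Of 20036 autosomal genes, 3280 met this rule, 1744 of them higher in cortex and 1536 higher in hippocampus. The rule was applied to these same arrays, so the levels of the genes it kept are described here and not tested.

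The series compares mouse models of Alzheimer's disease, and every array held the RNA of 3 animals in equal amounts. The cortex arrays came from the prefrontal cortex of C57BL/6 mice described as an aging model, at 1.5, 4, 17, and 22 months, with 1 array per age. Of the hippocampus arrays, 3 came from transgenic C57BL/6 mice: NCSTN, which overexpress mutated human nicastrin, a γ-secretase subunit (10 months), MAPT, which overexpress wild-type human tau (12 months), and 5xFAD, which carry mutated human transgenes under the neuronal Thy1 promoter (6 months). The other 5 came from ICR mice whose age is given as 7 weeks for the administration and not for sampling: 14 days after intracerebroventricular injection of amyloid-b (Aβ) at 5 or 10 µM, 14 days after intracerebroventricular streptozotocin at 2.5 or 3 mg/kg, or 30 minutes after intraperitoneal scopolamine at 1 mg/kg, a blocker of muscarinic receptors. The promoters of the NCSTN and MAPT transgenes are not given in the sources used here. Hippocampus of untreated non-transgenic mice was not analysed here, so region cannot be told apart from the transgenes and treatments that all hippocampus animals carried, and the 3 animals behind each array leave no spread between animals to measure.

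The neocortex and the hippocampus both form from the pallium of the embryonic forebrain, and both are built mainly of glutamatergic projection neurons with a minority of GABAergic interneurons. Cortical projection neurons are stacked in layers that differ in their targets, whereas the hippocampus is a folded sheet of granule cells in the dentate gyrus and pyramidal cells in fields CA1 to CA3, bordered by the subiculum. The hippocampus also faces the lateral ventricle, which is lined by ciliated ependyma and holds the choroid plexus. In pooled tissue, fewer cells of a type and less RNA per cell cannot be told apart.

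Between 63.6% and 75.9% of the 39429 probes were marked well above background on an array, and no spot was saturated. Over autosomal genes, Pearson's r between arrays was 0.988 to 0.991 within cortex, 0.975 to 0.992 within hippocampus, and 0.966 to 0.982 between cortex and hippocampus. The methods describe the animals of all 12 arrays as male, but Xist, the RNA of the inactive X chromosome of female cells, was well above background on 3 of 3 transgenic arrays and on 0 of the other 9, whereas the Y-linked genes Ddx3y and Eif2s3y were well above background on those 9 and on 0 transgenic arrays. Sex, strain, age, and treatment therefore cannot be told apart among the hippocampus arrays, and the counts below are also given against each strain alone.

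Genes without overlap made up 16.4% of the autosomal genes, with 8.70% higher in cortex and 7.67% higher in hippocampus. Set against the 3 transgenic C57BL/6 hippocampus arrays alone, the same rule gave 3803 genes higher in cortex and 2524 higher in hippocampus, and against the 5 ICR arrays alone it gave 3506 and 3577. These sets have fewer arrays to separate and also differ in strain, sex, age, and treatment, and the part of each was not tested. A test across all genes with limma and Benjamini-Hochberg adjustment, called at an adjusted p under 0.05, gave 2631 genes higher in cortex (13.1%) and 2306 higher in hippocampus (11.5%). These shares are the background for the gene lists below. Most differences were small: the median size of the mean difference was 0.71 on the log2 scale for genes higher in cortex and 0.73 for genes higher in hippocampus. The gap between the regions, which is the lowest value of the brighter region minus the highest of the dimmer, reached 0.5 in 329 and 314 genes, 1 in 115 and 144 genes, and 2 in 18 and 35 genes. Of the genes higher in cortex, 1691 were well above background on all 4 cortex arrays, and 1383 of those higher in hippocampus were so on all 8 hippocampus arrays. In 11 of the first set and 43 of the second, no array of the dimmer region was well above background. At the edge of the rule, Ten1 (from 10.02 on cortex against a highest value of 10.02 on hippocampus) and Zfp983 (5.71 and 5.71) lay just inside for cortex, and Zfp281 (hippocampus from 11.61, cortex up to 11.61) and Trim39 (7.24 and 7.24) just inside for hippocampus. Slc25a4 (cortex from 16.42, hippocampus up to 16.42), Rbsn (10.85 and 10.85), Prdx2 (hippocampus from 14.09, cortex up to 14.09), and Fcf1 (11.61 and 11.61) lay just outside.

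Genes with the widest gaps in favour of cortex included muscle-type contractile proteins, a calcium buffer, a neuropeptide, and a sialidase. All levels below are log2 signals after quantile normalization, the cortex values are given in the order 1.5, 4, 17, and 22 months, and a level of 1 gene is not comparable with that of another. Myl4, a myosin light chain of atrial and embryonic muscle, measured 14.23, 14.52, 14.07, and 14.36 on the cortex arrays and from 9.72 to 10.01, with a median of 9.91, on the hippocampus arrays, a 21.2-fold difference of means. The spread within a region was small beside the gap between the regions. Tnnc1, the troponin C of slow and cardiac muscle, measured 10.39, 9.20, 9.90, and 9.97 on the cortex arrays against 5.41 to 5.90 on hippocampus (median 5.64), which is 18.3-fold. For Ocm, oncomodulin, a calcium-binding protein of the parvalbumin family, values were 7.56, 7.03, 7.0, and 7.39 on cortex, whereas hippocampus spanned 3.33 to 3.77 around a median of 3.50. Kiss1, the precursor of the kisspeptin peptides, stood at 8.59, 8.07, 8.97, and 8.95 on the cortex arrays and from 3.25 to 4.94, with a median of 3.49, on the hippocampus arrays. The highest hippocampus value of Kiss1 was that of NCSTN, and the 3 transgenic arrays lay above all 5 ICR arrays. Hs3st2, a heparan sulfate sulfotransferase, had values of 11.45, 11.94, 11.94, and 11.66 on the cortex arrays against 7.63 to 8.84 on hippocampus (median 8.44). Dkkl1, a secreted protein related to the Dickkopf inhibitors of Wnt signalling, gave 12.50, 12.60, 12.86, and 12.74 on cortex, whereas hippocampus spanned 7.77 to 9.91 around a median of 8.95. Neu2, a cytosolic sialidase, lay at 10.43 to 10.82 on cortex and 7.36 to 8.19 on hippocampus, and Lamp5, a membrane protein that marks superficial layers and a class of interneurons, lay at 12.05 to 12.83 on cortex and 8.90 to 9.81 on hippocampus. The remaining wide gaps belonged to Rasgef1c, a Ras-family exchange factor (3.47 higher in cortex by the means on the log2 scale), Rgs6, a regulator of G protein signalling (2.64), Stat4, a transcription factor of cytokine signalling (3.11), and Olfr464, an olfactory receptor gene that no hippocampus array showed well above background and that was at least 5.86-fold higher in cortex. For such a limit, the dimmer region counts at its own signal or at the faintest signal that still passed as well above background on that array, whichever is brighter. These limits and all folds are those of the processed signal and depend on the background correction. With normexp, a model-based correction that here added an offset of 50 to every signal, the measured folds of all 14 named genes with such a limit were below it, at 1.18 to 4.75.

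Genes with the widest gaps in favour of hippocampus included an ion exchanger, receptors for vasopressin and neuropeptide Y, a neuropeptide, and an auxiliary subunit of AMPA receptors. Slc9a4, a sodium-hydrogen exchanger, measured 1.74, 1.77, 2.85, and 3.72 on the cortex arrays and from 8.0 to 8.50, with a median of 8.30, on the hippocampus arrays. It was well above background on 0 of 4 cortex arrays and on 8 of 8 hippocampus arrays, and was at least 37.0-fold higher in hippocampus on the processed signal, against a measured 4.75-fold with normexp. Avpr1b, a vasopressin receptor known from pyramidal cells of CA2, measured 1.79, 1.79, 1.80, and 1.82 on the cortex arrays against 5.70 to 7.28 on hippocampus (median 6.43), which is at least 11.4-fold (2.22-fold with normexp). Its highest value was that of streptozotocin at 2.5 mg/kg, 7.28, and its lowest that of MAPT, 5.70. Nts, the precursor of neurotensin, stood at 5.17, 4.94, 5.25, and 4.91 on cortex, whereas hippocampus spanned 9.04 to 9.69 around a median of 9.34, a 19.7-fold difference of means (6.76-fold with normexp). Shisa6, an auxiliary protein that keeps AMPA receptors at the synapse, had values of 8.16, 8.09, 7.93, and 8.19 on the cortex arrays and from 11.95 to 12.30, with a median of 12.15, on the hippocampus arrays, or 16.4-fold. Lhx9, a LIM homeobox transcription factor, gave 2.51, 3.45, 2.5, and 2.93 on the cortex arrays against 7.04 to 8.14 on hippocampus (median 7.82), and each of its 3 probes separated the regions. C4bp, a binding protein of complement C4b, was well above background on hippocampus alone and at least 9.70-fold higher there (2.02-fold with normexp), with 1.88 to 1.95 on cortex and 5.49 to 6.64 on hippocampus. Scin, an actin-severing protein (at least 6.92-fold higher in hippocampus, 1.65-fold with normexp), and Popdc3, a membrane protein of the Popeye family (at least 12.4-fold, 2.49-fold with normexp), were not well above background on any cortex array. For Lct, lactase, which marks dentate granule cells, values were 8.47, 7.16, 7.80, and 8.24 on cortex, whereas hippocampus spanned 11.36 to 12.31 around a median of 11.76. Npy2r, a presynaptic receptor for neuropeptide Y, measured 4.36, 4.26, 4.91, and 5.57 on the cortex arrays and from 8.44 to 9.35, with a median of 8.70, on the hippocampus arrays. Dnah6, a dynein heavy chain of motile cilia, spanned 4.50 to 5.58 on cortex and 8.39 to 10.17 on hippocampus, and it is described with the ependyma below. Of the 12 genes with the widest gaps for hippocampus, Avpr1b differed between C57BL/6 and ICR hippocampus in a separate 3-group fit (−0.70 on the log2 scale for C57BL/6 minus ICR, adjusted p = 0.039 by limma), and of the 12 genes with the widest gaps for cortex, Kiss1 did (0.99, adjusted p = 0.025 by limma).

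**Figure D1:**
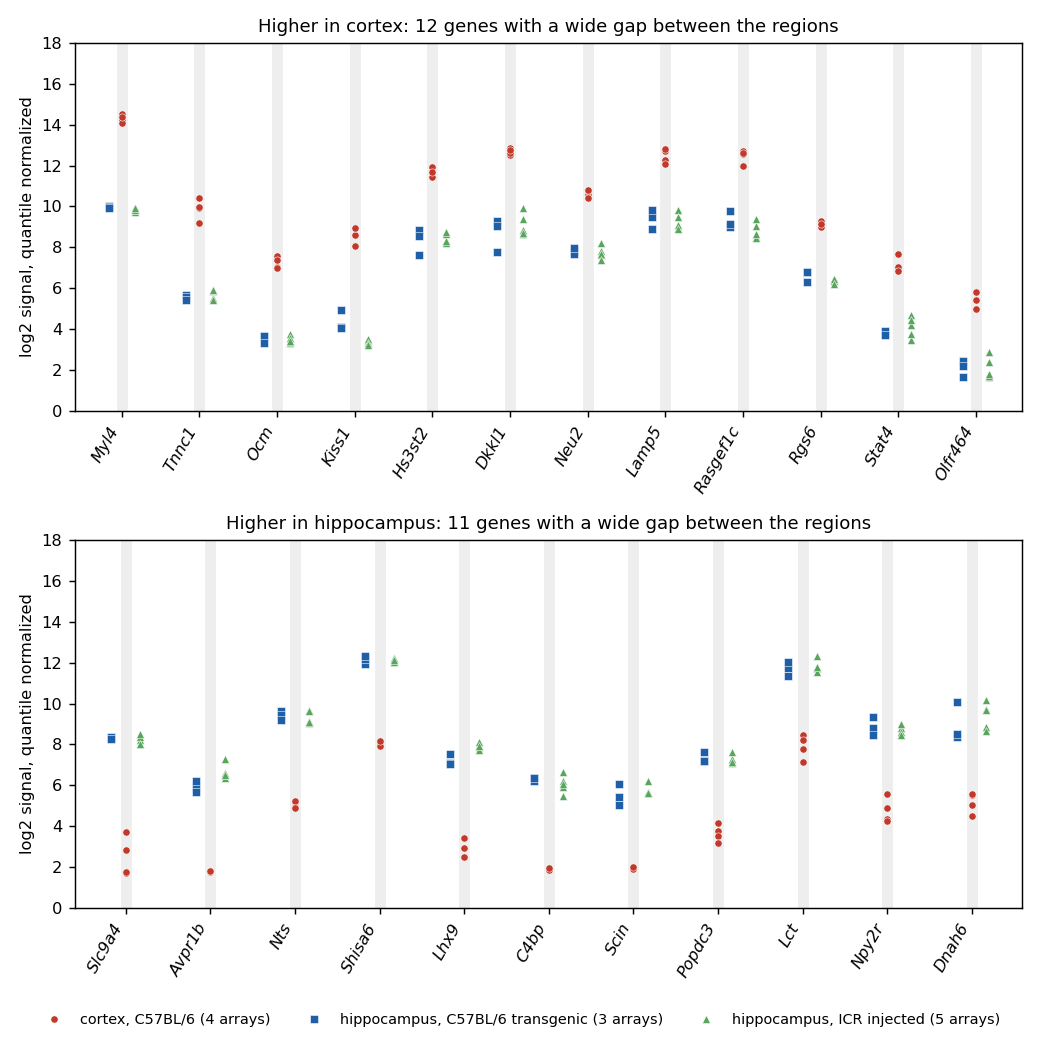
Log2 signal after quantile normalization (y axis) of genes drawn from the 12 with the widest gap in each direction (x axis, widest at the left), 12 for cortex and 11 for hippocampus, with 1 point per array: red circles are the 4 cortex arrays, blue squares the 3 transgenic C57BL/6 hippocampus arrays, and green triangles the 5 ICR hippocampus arrays. In every gene the red points lie apart from all others, Myl4 has cortex values of 14.07 to 14.52 against 9.72 to 10.01, and Slc9a4 has hippocampus values of 8.0 to 8.50 against 1.74 to 3.72.

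Upstream sequences are shown for the genes with the widest gaps in each direction that have exactly 1 entry in the RefSeq promoter table of assembly GRCm38.p6, Myl4 and Tnnc1 for cortex and Nts and Lhx9 for hippocampus. Each run is the 250 bases before the start of the gene, 5′ to 3′ on the strand of the gene. They lie at chr11:104550413-104550662 (plus strand, Myl4), chr14:31208062-31208311 (plus strand, Tnnc1), chr10:102490419-102490668 (minus strand, Nts), and chr1:138842445-138842694 (minus strand, Lhx9). Capitals mark matches to any of 4 motifs searched on both strands: the core bound by MEF2 factors (CTA and TAG with any 4 bases between them); TGACGTCA, the cAMP response element; TGANTCA, the AP-1 element; and TATAAA, the TATA box.
Myl4: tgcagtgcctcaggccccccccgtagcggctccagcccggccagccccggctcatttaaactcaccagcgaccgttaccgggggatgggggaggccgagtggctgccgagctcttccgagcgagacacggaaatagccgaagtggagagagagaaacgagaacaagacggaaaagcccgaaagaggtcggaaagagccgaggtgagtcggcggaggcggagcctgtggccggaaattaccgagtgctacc
Tnnc1: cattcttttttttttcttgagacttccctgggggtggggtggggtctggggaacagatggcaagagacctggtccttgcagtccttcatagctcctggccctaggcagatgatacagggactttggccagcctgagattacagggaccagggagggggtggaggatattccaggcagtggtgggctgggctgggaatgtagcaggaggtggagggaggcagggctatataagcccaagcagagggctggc
Nts: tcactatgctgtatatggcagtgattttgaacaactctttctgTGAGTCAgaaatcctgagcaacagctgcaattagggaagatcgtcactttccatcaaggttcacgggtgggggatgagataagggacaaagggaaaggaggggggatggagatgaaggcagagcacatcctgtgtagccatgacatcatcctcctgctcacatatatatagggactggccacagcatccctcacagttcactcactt
Lhx9: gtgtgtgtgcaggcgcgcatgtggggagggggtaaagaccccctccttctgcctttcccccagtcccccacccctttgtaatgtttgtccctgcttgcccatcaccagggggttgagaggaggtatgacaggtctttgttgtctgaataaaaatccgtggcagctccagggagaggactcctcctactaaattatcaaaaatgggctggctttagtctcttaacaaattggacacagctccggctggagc
The window of Myl4 is rich in CpG pairs, with 23 against a median of 11 over the windows of all autosomal genes tested, whereas those of Tnnc1, Nts, and Lhx9 hold 0, 2, and 4. Only the AP-1 letters were found, once, in Nts. The search took exact letters and misses close variants, so a window without a match may still hold such an element. Over all 32851 promoters of the table, the MEF2 core is in 3.20%, the cAMP response element in 1.55%, the AP-1 element in 6.75%, and TATAAA in 12.4%. Of the genes without overlap, 1351 higher in cortex and 1225 higher in hippocampus have a window. TATAAA was found in 9.40% and 9.31% of them, against 13.0% of the 15838 tested genes with a window. For the MEF2 core the shares were 3.55% and 2.61% against 3.67%, for the cAMP response element 3.40% and 2.69% against 2.36%, and for AP-1 5.85% and 7.27% against 7.28%.

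The tissue labels were checked against markers of the regions. These lists were chosen with earlier results of these data known, so this is not an independent check. Of 25 genes that mark dentate gyrus, CA fields, or subiculum, 14 were higher in hippocampus without overlap, 1 was higher in cortex, and 10 overlapped, and limma called 14 and 1. Prox1, the homeobox factor that sets the identity of dentate granule cells, measured 4.82, 5.14, 5.18, and 5.59 on the cortex arrays against 7.60 to 8.21 on hippocampus (median 8.02). Fibcd1, a chitin-binding receptor of CA1, stood at 5.66, 4.51, 3.81, and 4.93 on cortex, whereas hippocampus spanned 8.13 to 9.51 around a median of 9.13. Spink8, a protease inhibitor of CA1, had values of 7.99, 7.76, 8.15, and 8.44 on the cortex arrays and from 10.30 to 12.64, with a median of 12.36, on the hippocampus arrays. Within hippocampus, Spink8 was lowest on 5xFAD (10.30) and scopolamine (10.72), and the other 6 arrays read 12.10 to 12.64. Dsp, the desmosome protein desmoplakin, which marks dentate granule cells, was at least 9.58-fold higher in hippocampus (3.11-fold with normexp), although only 1 of its 2 probes separated the regions, and Ntf3, the growth factor neurotrophin-3, was 9.25-fold higher by the means. The exception was Spock1, an extracellular proteoglycan, with 7.94 to 8.45 on cortex and 6.61 to 7.56 on hippocampus, and 1 of its 2 probes separated the regions. Amigo2, a CA2 adhesion protein, was separated by region too, but its value on the Aβ 10 µM array was 15.86, whereas the other 7 hippocampus arrays read 7.47 to 8.45. C1ql2, a secreted synaptic protein of dentate granule cells, overlapped: the ICR arrays (7.90 to 8.33) reached down to cortex (7.88 to 8.10), whereas the transgenic arrays read 9.24 to 9.64. Wfs1 (12.38 to 13.58 on cortex and 13.26 to 14.78 on hippocampus) and Mpped1 (14.26 to 14.39 on cortex and 13.87 to 14.51 on hippocampus), both used as markers of CA1, overlapped as well.

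Genes used as markers of cortical layers were split. Of 32 measured, 12 were higher in cortex without overlap, 8 were higher in hippocampus, and 12 overlapped. Mef2c, a MADS-box factor of upper-layer and other projection neurons, stood at 11.37, 11.02, 10.67, and 10.86 on the cortex arrays against 7.95 to 8.99 on hippocampus (median 8.42). Others higher in cortex were Rorb, an orphan receptor of layer 4 (10.57 to 10.78 on cortex and 8.91 to 9.70 on hippocampus), Tbr1, a T-box factor of layer 6 (10.58 to 10.94 on cortex and 8.97 to 10.10 on hippocampus), and Cux2, a homeobox factor of the upper layers (7.78 to 8.82 on cortex and 6.30 to 7.28 on hippocampus). On the opposite side lay Nr4a2, an orphan nuclear receptor of deep cortex and claustrum (9.24 to 10.39 on cortex and 11.09 to 12.34 on hippocampus), Bcl11b, a zinc finger factor of subcortical projection neurons that granule and pyramidal cells of the hippocampus also use (10.19 to 10.67 on cortex and 11.30 to 11.79 on hippocampus), and Crym, a thyroid hormone binding protein (13.79 to 14.12 on cortex and 14.82 to 15.59 on hippocampus). Fezf2, the selector of deep-layer projection neurons, did not separate the regions, with 10.57 to 10.92 on cortex and 9.95 to 10.95 on hippocampus.

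Tissue next to the dissected regions was followed with lists of its markers, also chosen with earlier results of these data known. All 10 ependyma genes measured were higher in hippocampus without overlap, and limma called all 10. Tmem212, a membrane protein of ependyma, measured 1.83, 1.81, 1.86, and 5.93 on cortex, whereas hippocampus spanned 7.25 to 9.18 around a median of 8.71. Only the 22-month cortex array showed Tmem212 well above background among the cortex arrays. Ccdc153, an axonemal protein, measured 4.66, 3.98, 5.33, and 7.87 on the cortex arrays and from 9.36 to 10.66, with a median of 10.48, on the hippocampus arrays, and the 22-month array was again the highest of cortex. Foxj1, the master regulator of motile cilia, spanned 7.23 to 7.51 on cortex and 7.80 to 9.41 on hippocampus, and its lowest hippocampus values were those of both streptozotocin arrays (8.16 and 7.80). Dnah6 was highest on the scopolamine (10.17) and 5xFAD (10.07) arrays and lowest on NCSTN (8.39). Of 14 choroid plexus genes, 2 were higher in hippocampus without overlap and 12 overlapped, although limma called 8 of them higher in hippocampus and the median difference of the list was −3.50 on the log2 scale (−2.26 with normexp). Ttr, transthyretin, the main secreted protein of choroid plexus, measured 5.11, 6.06, 15.57, and 6.85 on cortex, 11.27 and 12.06 on the streptozotocin arrays, and 16.49 to 17.38 on the other 6 hippocampus arrays. The 17-month cortex array thus read higher than both streptozotocin arrays. Kl, the co-receptor klotho, was separated, with 6.03, 5.66, 8.48, and 6.38 on the cortex arrays against 8.89 to 12.16 on hippocampus (median 10.94). Its streptozotocin arrays, at 8.89 and 8.95, lay next to the 17-month cortex array at 8.48. The log2 of the summed signal of the choroid plexus list ran from 14.19 to 16.28 on cortex and from 13.98 to 18.38 on hippocampus, and that of the ependyma list from 10.99 to 11.40 and from 12.38 to 14.05. Other genes higher in hippocampus were also lowest there on the streptozotocin arrays. Dnah11, a dynein heavy chain of motile cilia, read 4.89 and 4.74 on these arrays and 6.34 to 7.60 on the other 6. Lmx1a, a LIM homeobox factor, read 4.68 and 5.31 against 6.16 to 7.64. Cox8b, a subunit of cytochrome c oxidase, read 8.32 and 8.17 against 10.48 to 11.73, and Crhr2, a receptor for corticotropin-releasing peptides, 7.88 and 8.15 against 8.70 to 10.16. The part of ventricular tissue in these differences was not tested.

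**Figure D2:**
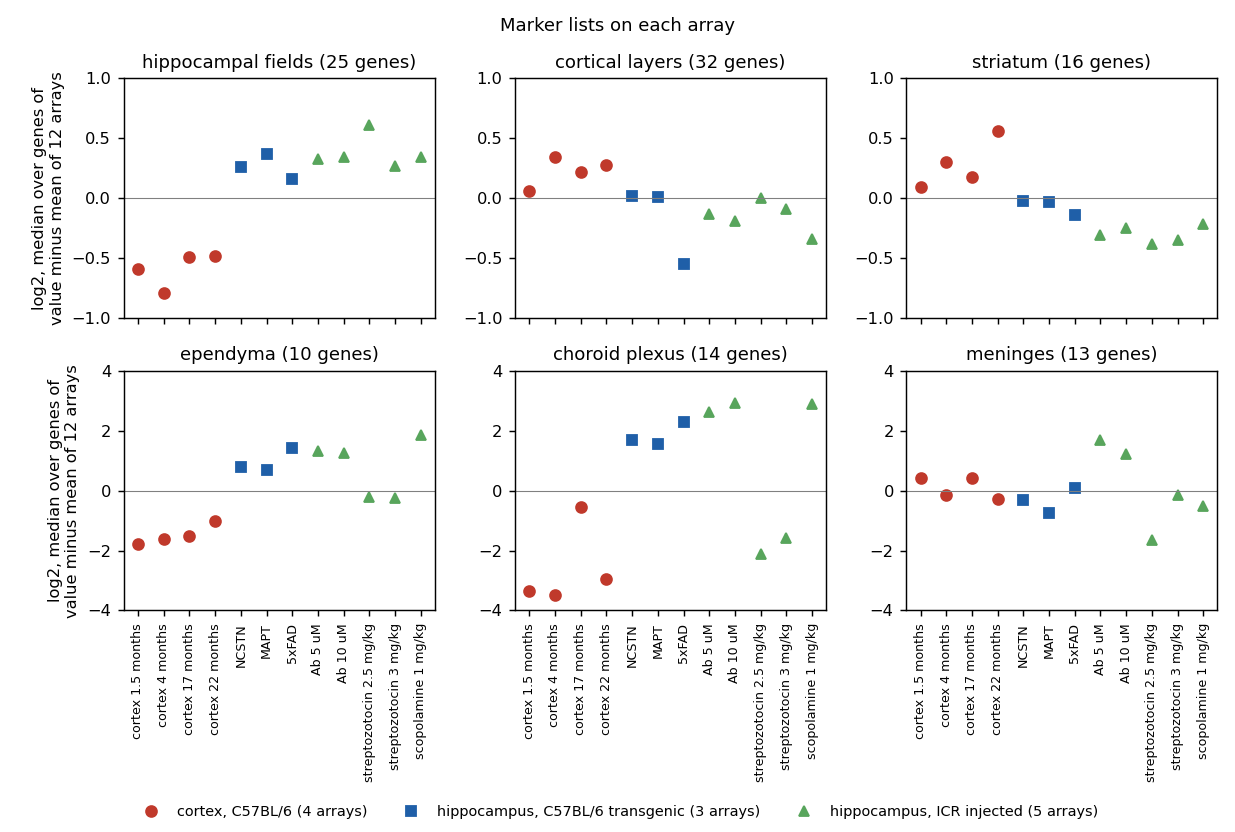
Level of 6 marker lists on each of the 12 arrays (x axis). The y axis gives, in log2 units, the median over the genes of a list of the value minus the mean of that gene over the 12 arrays, with colours and shapes as in the plot of the widest gaps; the upper and lower rows have different scales. The hippocampal list runs from −0.79 to −0.48 on cortex and from 0.16 to 0.61 on hippocampus, and the choroid plexus list is low on cortex (−3.49 to −0.53) and on both streptozotocin arrays (−2.13 and −1.57) and high on the other 6 (1.55 to 2.92).

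Genes of other cell types lay on either side. Of 16 astrocyte genes, 4 were higher in hippocampus without overlap and none was higher in cortex, and limma called 7 and 1. Agt, angiotensinogen, which astrocytes make, measured 6.70, 6.49, 6.60, and 6.58 on cortex, whereas hippocampus spanned 7.90 to 8.65 around a median of 8.33. Gfap, the intermediate filament of astrocytes, stood at 9.61, 9.23, 9.41, and 9.33 on the cortex arrays and from 10.19 to 13.12, with a median of 10.42, on the hippocampus arrays, and its highest values were those of 5xFAD (13.12) and NCSTN (11.84). Of 14 oligodendrocyte genes, 2 were higher in hippocampus and none in cortex (5 and 0 by limma), and the 9 genes of their precursors split into 3 and 1 (4 and 1 by limma). The myelin protein gene Mbp was at the edge, with 10.19 to 10.83 on cortex and 10.86 to 11.29 on hippocampus, and 1 of its 3 probes separated the regions. None of 14 microglia genes was separated, and limma called 1, higher in cortex. The median level of the microglia list was 1.26 above its mean over all arrays on 5xFAD and between −0.40 and 0.13 on the other 11. Endothelial genes lay on the cortex side, with 5 of 11 separated and none in the other direction (6 and 0 by limma), among them Cldn5, a tight junction protein (12.62 to 13.06 on cortex and 11.43 to 12.53 on hippocampus), and Abcb1a, the drug efflux pump of brain capillaries (10.33 to 10.57 on cortex and 9.24 to 9.97 on hippocampus). Among 16 striatal genes, 4 were higher in cortex and none in hippocampus (6 and 1 by limma). Drd2, a dopamine receptor that defines a class of striatal neurons, overlapped, with 3.16, 6.94, 4.23, and 5.83 on cortex and 3.55 to 4.86 on hippocampus. Of 11 thalamic genes, 1 was higher in cortex and 2 in hippocampus (1 and 3 by limma), and of 7 olfactory bulb genes only Th, tyrosine hydroxylase, was separated (9.02 to 9.67 on cortex and 8.33 to 8.95 on hippocampus). Of 13 meningeal genes, only Lum, the matrix proteoglycan lumican, was separated (7.44 to 8.01 on cortex and 8.50 to 10.49 on hippocampus), and 0 of 6 red blood cell genes were, by overlap or by limma at an adjusted p under 0.05. Of 14 genes of newborn neurons, 2 lay on each side (2 higher in cortex and 5 in hippocampus by limma). Among 8 pituitary genes, 2 were higher in hippocampus and 0 in cortex (1 and 0 by limma). Prl, prolactin, read 12.35 on the MAPT array, 1.83 to 5.54 on the other hippocampus arrays, and 1.78 to 1.83 on cortex. It met the rule by a gap of only 0.005 and was not called by limma (adjusted p = 0.165). It was well above background on 4 of 8 hippocampus arrays and 0 of 4 cortex arrays. Lhb, the β subunit of luteinizing hormone, spanned 4.95 to 5.25 on cortex and 5.37 to 6.70 on hippocampus.

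Transcription factors of the forebrain were separated in both directions. Of 51 homeobox factors, 9 were higher in cortex and 8 in hippocampus (11 and 11 by limma), and of 77 other factors, 12 and 16 (16 and 25 by limma). The cortex side held Otx1, a homeobox factor of deep-layer neurons, with 5.31, 5.81, 5.70, and 5.33 on the cortex arrays against 2.07 to 4.98 on hippocampus (median 3.04). Otx1 was higher on the transgenic than on the ICR hippocampus arrays (1.59 on the log2 scale, adjusted p = 0.0128 by limma). It was well above background on only 3 of 8 hippocampus arrays, so the size of this difference rests on values near background. On the hippocampus side, Lmx1a was not well above background on any cortex array and was at least 12.2-fold higher in hippocampus (2.23-fold with normexp). Zbtb20, a zinc finger repressor needed for the identity of hippocampal pyramidal cells, measured 10.94, 10.89, 11.25, and 10.99 on cortex, whereas hippocampus spanned 12.78 to 13.69 around a median of 13.18. Nr2f2, an orphan receptor of caudal interneurons and of the caudal cortex (COUP-TFII), stood at 8.80, 8.21, 8.87, and 8.95 on the cortex arrays and from 9.76 to 11.53, with a median of 11.21, on the hippocampus arrays. Its streptozotocin 2.5 mg/kg array was the lowest of hippocampus, at 9.76. St18, a zinc finger factor of the Myt family, had values of 4.73, 6.19, 4.80, and 5.72 on the cortex arrays against 7.97 to 8.48 on hippocampus (median 8.18). Nr4a3, an orphan receptor induced by activity, was at least 4.57-fold higher in hippocampus on the processed signal, against a measured 1.43-fold with normexp.

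Receptors for the fast transmitters differed by subunit. Of 26 glutamate receptor genes, 6 were higher in cortex and 5 in hippocampus (8 and 6 by limma). Gria1, a subunit of AMPA receptors, measured 11.78, 11.87, 11.85, and 11.97 on cortex, whereas hippocampus spanned 13.21 to 13.52 around a median of 13.39. Grik4, a high-affinity kainate receptor subunit known from CA3, stood at 11.91, 11.59, 11.65, and 11.90 on the cortex arrays and from 12.40 to 13.19, with a median of 12.68, on the hippocampus arrays. In both genes all 8 hippocampus arrays lay above all 4 cortex arrays. The presynaptic metabotropic receptors Grm8 (10.21 to 10.51 on cortex and 8.08 to 9.13 on hippocampus) and Grm4 (8.36 to 8.59 on cortex and 6.39 to 7.39 on hippocampus) lay the other way, as did Grm3 (10.75 to 11.0 on cortex and 9.35 to 10.32 on hippocampus) and the kainate subunit Grik3 (6.87 to 7.94 on cortex and 5.99 to 6.84 on hippocampus). Only 1 of the 2 probes of Grik3 separated the regions, and its gap was 0.028. Its difference of means was 1.08 on the log2 scale, but 0.26 on the deposited matrix. Of 18 GABA receptor genes, 5 were higher in cortex and 2 in hippocampus, the same numbers as by limma. Gabra2, an α subunit of GABAA receptors, measured 10.68, 10.44, 10.12, and 10.02 on the cortex arrays against 12.05 to 12.76 on hippocampus (median 12.43). Gabra5, the α subunit of tonic inhibition in CA1, had values of 10.32, 10.37, 10.47, and 10.41 on cortex, whereas hippocampus spanned 11.19 to 11.92 around a median of 11.47. In the opposite direction, Gabrd, the δ subunit of extrasynaptic receptors, gave 13.27, 13.06, 13.13, and 13.24 on the cortex arrays and from 10.83 to 12.22, with a median of 11.51, on the hippocampus arrays. Gabrb2, a β subunit, was higher in cortex by a smaller amount (13.77 to 14.05 on cortex and 13.16 to 13.49 on hippocampus).

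Receptors for the modulatory transmitters were likewise split by gene. Of 13 serotonin receptor genes, 3 were higher in cortex and 2 in hippocampus (3 and 3 by limma). Htr2a, the receptor that hallucinogens act on, measured 10.03, 9.63, 11.02, and 10.47 on the cortex arrays against 7.69 to 8.66 on hippocampus (median 8.23). It was the 17-month array that read highest and the 4-month array that read lowest on cortex. Htr5b, a receptor that is a pseudogene in humans, stood at 5.57, 5.38, 5.66, and 5.57 on cortex, whereas hippocampus spanned 7.31 to 8.78 around a median of 8.29. Htr4, a receptor coupled to cAMP, had values of 3.67, 3.83, 3.75, and 4.06 on the cortex arrays and from 5.68 to 7.01, with a median of 6.01, on the hippocampus arrays, and 1 of its 2 probes separated the regions. Of 18 acetylcholine receptor genes, 3 lay on each side (4 and 4 by limma), with the muscarinic receptor Chrm2 (6.78 to 7.77 on cortex and 4.90 to 6.31 on hippocampus) and the nicotinic subunits Chrna2 (8.86 to 9.18 on cortex and 7.34 to 8.48 on hippocampus) and Chrna4 (7.32 to 7.96 on cortex and 6.27 to 7.12 on hippocampus) higher in cortex. The α7 subunit Chrna7 was higher in hippocampus (5.99 to 6.19 on cortex and 6.79 to 7.66 on hippocampus), as were Chrna1, the muscle-type subunit (4.0 to 4.46 on cortex and 5.55 to 6.11 on hippocampus), and Chrna10, which was well above background on only 2 of 8 hippocampus arrays and no cortex array. Of 18 dopamine, adrenergic, and opioid receptor genes, 5 were higher in cortex and 2 in hippocampus (7 and 2 by limma). Oprk1, the κ opioid receptor, measured 6.21, 7.75, 7.64, and 7.13 on the cortex arrays against 4.26 to 5.75 on hippocampus (median 4.69). Its lowest cortex value was that of the 1.5-month array. The δ opioid receptor Oprd1 (6.93 to 7.43 on cortex and 5.46 to 6.47 on hippocampus) and the β adrenergic receptors Adrb3 (6.44 to 7.21 on cortex and 5.06 to 5.70 on hippocampus) and Adrb1 (8.04 to 8.35 on cortex and 7.12 to 7.69 on hippocampus) were higher in cortex too, whereas Drd5, a receptor of the dopamine D1 class, was higher in hippocampus (6.21 to 7.42 on cortex and 7.76 to 8.85 on hippocampus). For Adrb1, 1 of 2 probes separated the regions.

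**Figure D3:**
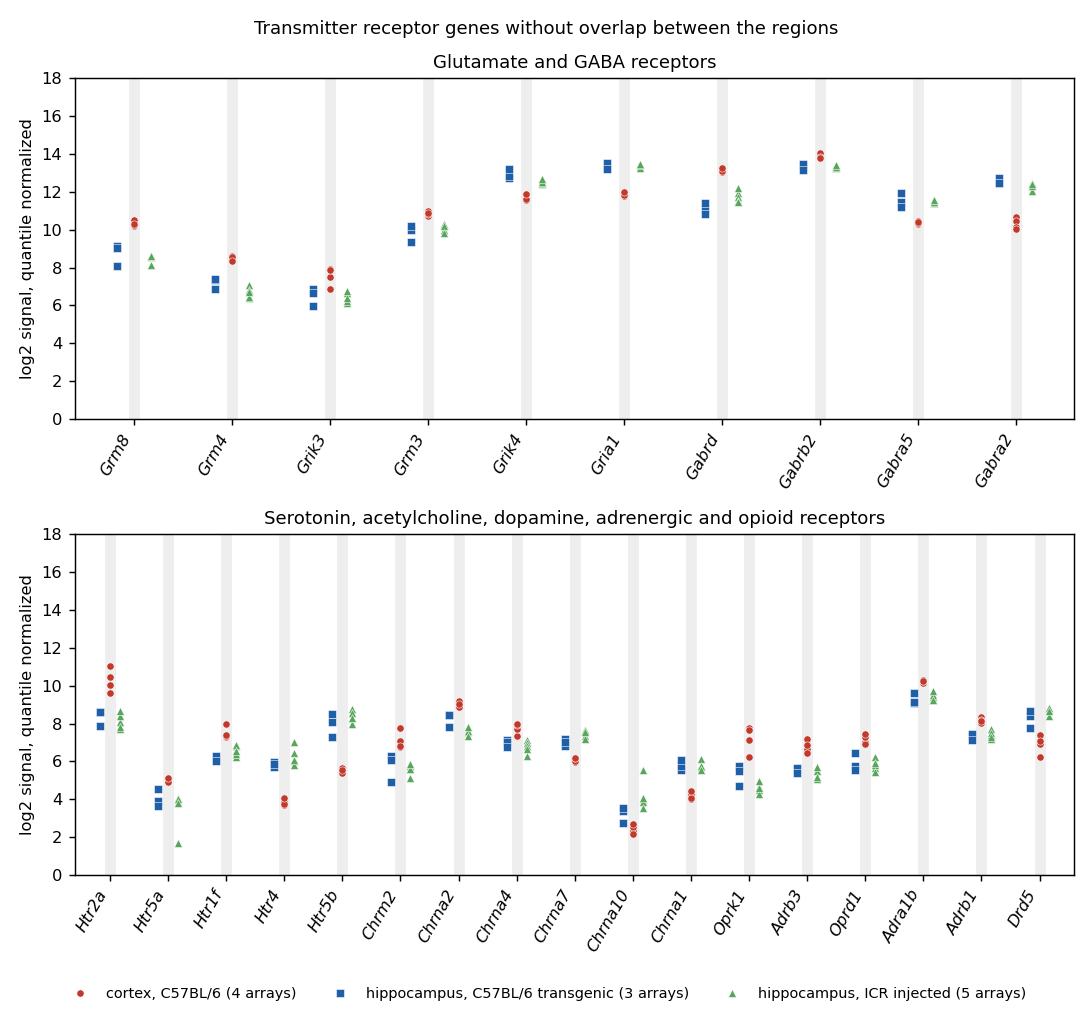
Log2 signal after quantile normalization (y axis) of receptor genes without overlap between the regions, drawn from the up to 6 per list with the largest mean difference, with 1 point per array and colours and shapes as in the plot of the widest gaps. The upper panel has glutamate and GABA receptors, where Gabra2 reads 10.02 to 10.68 on cortex and 12.05 to 12.76 on hippocampus, and the lower panel has receptors for serotonin, acetylcholine, dopamine, adrenaline, and opioids, where Htr2a reads 9.63 to 11.02 and 7.69 to 8.66.

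Neuropeptide genes that separated the regions were mostly higher in cortex. Of 36 measured, 12 were higher in cortex and 5 in hippocampus (12 and 6 by limma), with a median difference of 0.51 on the log2 scale (0.22 with normexp), where the median over all genes was 0.0031. Crh, corticotropin-releasing hormone, measured 10.44, 10.01, 10.44, and 10.17 on cortex, whereas hippocampus spanned 7.06 to 8.81 around a median of 8.19. Adcyap1, the precursor of the peptide PACAP, stood at 11.38, 10.97, 11.41, and 11.04 on the cortex arrays and from 7.91 to 9.46, with a median of 8.48, on the hippocampus arrays. Npy (12.95 to 13.35 on cortex and 11.05 to 12.15 on hippocampus), Vip (10.94 to 11.66 on cortex and 8.80 to 9.88 on hippocampus), and Cort, the somatostatin relative cortistatin (12.39 to 12.74 on cortex and 10.08 to 11.43 on hippocampus), are peptides of cortical interneurons, and each was higher in cortex on all arrays. Ucn, urocortin, was well above background on 3 of 4 cortex arrays and no hippocampus array, with 5.51, 3.78, 6.18, and 4.80 on cortex, and was at least 5.23-fold higher there (1.52-fold with normexp). Cbln2, a secreted organizer of synapses, spanned 8.95 to 9.36 on cortex and 5.65 to 7.58 on hippocampus. Of 26 interneuron genes, 6 were higher in cortex and 2 in hippocampus (7 and 3 by limma). The 2 were Calb2, the calcium buffer calretinin (5.25 to 5.83 on cortex and 6.95 to 8.14 on hippocampus), and Nos1, neuronal nitric oxide synthase (4.95 to 6.09 on cortex and 6.27 to 7.84 on hippocampus). Peptide receptors leaned the other way by count, with 3 of 35 higher in cortex and 8 in hippocampus, although limma called 5 and 6. Tacr3, the neurokinin B receptor, was well above background on hippocampus alone and at least 8.71-fold higher there (1.99-fold with normexp). Crhr1 and Crhr2, receptors for corticotropin-releasing peptides, lay on opposite sides, with 10.43, 9.88, 9.90, and 9.85 on the cortex arrays against 7.88 to 8.90 on hippocampus (median 8.42) for Crhr1. Crhr2 had values of 7.08, 6.71, 7.13, and 6.92 on cortex, whereas hippocampus spanned 7.88 to 10.16 around a median of 9.24. Cckbr, the brain receptor for cholecystokinin, gave 10.06, 9.68, 9.02, and 9.97 on the cortex arrays and from 6.62 to 7.74, with a median of 7.26, on the hippocampus arrays.

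**Figure D4:**
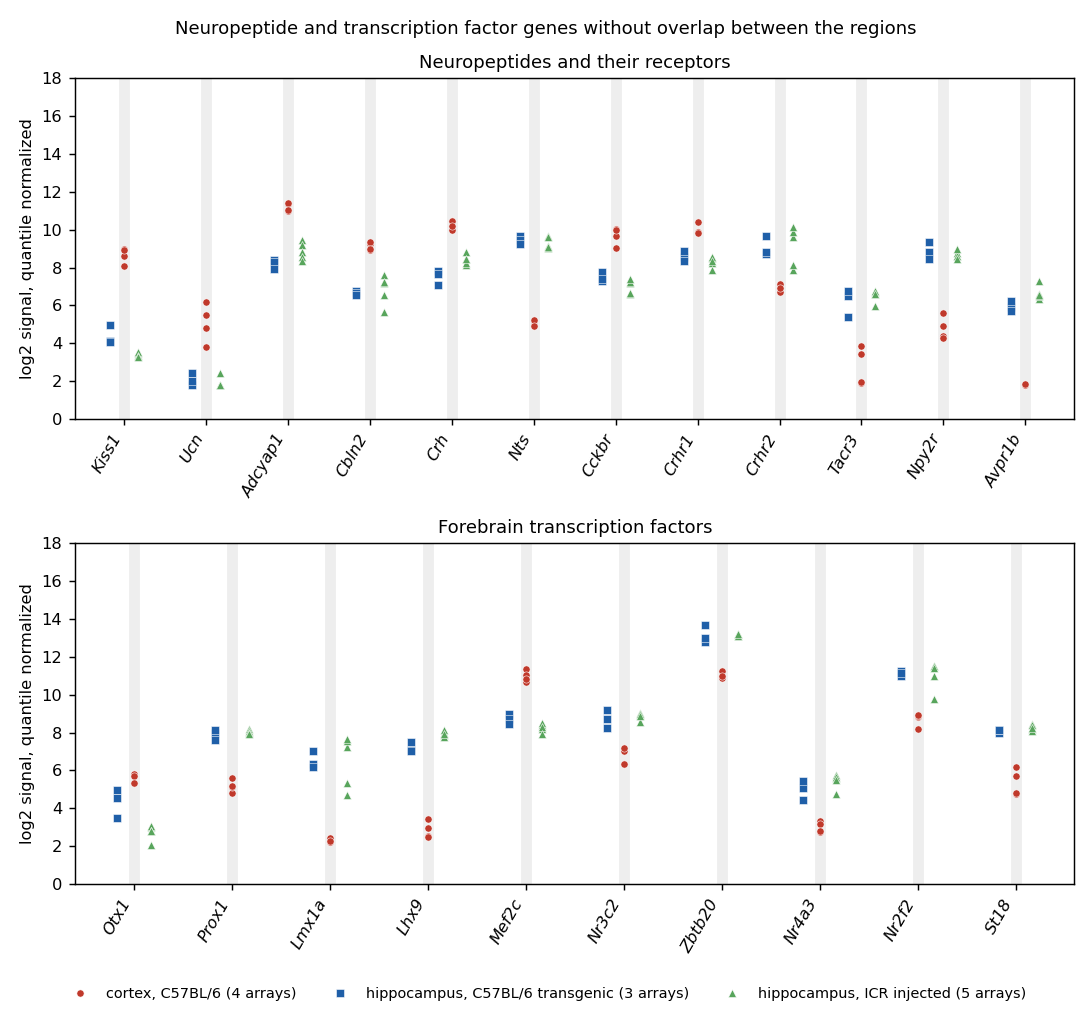
Log2 signal after quantile normalization (y axis) of neuropeptide and peptide receptor genes (upper panel) and forebrain transcription factors (lower panel) without overlap between the regions, drawn from the up to 6 per list with the largest mean difference, with 1 point per array and colours and shapes as in the plot of the widest gaps. Crhr1 reads 9.85 to 10.43 on cortex and 7.88 to 8.90 on hippocampus while Crhr2 reads 6.71 to 7.13 and 7.88 to 10.16, and the 3 transgenic arrays of Otx1 (3.49 to 4.98) lie above the 5 ICR arrays (2.07 to 3.07).

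Ion channel genes were mostly higher in cortex where they were separated. Of 94 potassium channel genes, 27 were higher in cortex and 4 in hippocampus (30 and 8 by limma), with a median difference of 0.23 (0.12 with normexp). Kcnf1, a silent subunit, measured 9.67, 9.58, 9.87, and 9.57 on the cortex arrays against 7.02 to 8.36 on hippocampus (median 7.60). Kcnv1, another silent subunit, was higher in cortex on all arrays as well (11.55 to 11.80 on cortex and 9.48 to 10.27 on hippocampus). The ether-a-go-go channels Kcnh5 (9.34 to 9.92 on cortex and 7.05 to 8.41 on hippocampus) and Kcnh1 (7.93 to 8.84 on cortex and 6.36 to 6.96 on hippocampus) followed. Of 41 sodium and calcium channel genes, 7 were higher in cortex and 2 in hippocampus, whereas limma called 15 and 3. Scn4b, a β subunit of sodium channels, stood at 11.93, 13.33, 12.43, and 12.61 on cortex, whereas hippocampus spanned 9.97 to 11.08 around a median of 10.36, and its 1.5-month value was the lowest of cortex. Cacng3, an AMPA receptor auxiliary protein of the same family as calcium channel γ subunits, measured 11.53, 11.07, 11.61, and 11.31 on the cortex arrays and from 9.27 to 9.87, with a median of 9.63, on the hippocampus arrays, and its relative Cacng5 lay the other way (6.46 to 7.87 on cortex and 8.11 to 9.15 on hippocampus). Cacnb4, a calcium channel β subunit, was higher in cortex (12.43 to 13.16 on cortex and 10.72 to 11.49 on hippocampus), and the T-type channel Cacna1h higher in hippocampus (7.68 to 7.97 on cortex and 8.49 to 8.93 on hippocampus). For Cacna1h, 1 of 2 probes separated the regions.

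Most guidance molecules that separated the regions were higher in hippocampus. Of 21 ephrins and Eph receptors, 7 were higher in hippocampus and 3 in cortex (8 and 3 by limma), of 30 semaphorins and their receptors 6 and 3 (8 and 6 by limma), and of 20 genes of the Slit, netrin, and Unc5 systems 3 and 0 (7 and 1 by limma). Efna5, an ephrin ligand, was on the cortex side, with 11.58, 11.69, 11.46, and 11.26 on the cortex arrays against 9.13 to 9.62 on hippocampus (median 9.51). Epha6, a receptor of the same family, was on the hippocampus side, with 8.51, 8.11, 8.64, and 8.55 on cortex, whereas hippocampus spanned 9.97 to 10.92 around a median of 10.44. Sema3a, a secreted repellent, stood at 8.16, 8.01, 7.94, and 7.93 on the cortex arrays and from 5.37 to 6.30, with a median of 5.69, on the hippocampus arrays. The semaphorin receptors Nrp1 and Nrp2 lay opposite: Nrp1 spanned 7.36 to 7.87 on cortex and 8.27 to 9.06 on hippocampus and Nrp2 8.99 to 10.04 on cortex and 11.07 to 11.76 on hippocampus. Slit1, a ligand of Robo receptors, measured 11.32, 11.29, 11.61, and 11.81 on the cortex arrays against 13.15 to 13.75 on hippocampus (median 13.48). Of 33 cadherins, 8 were higher in cortex and 4 in hippocampus (12 and 7 by limma). Pcdh20, a protocadherin, had values of 10.68, 10.15, 10.25, and 9.92 on cortex, whereas hippocampus spanned 12.26 to 12.80 around a median of 12.64, whereas the classical cadherin Cdh22 lay at 12.75 to 13.29 on cortex and 10.98 to 11.77 on hippocampus. Of 51 Wnt pathway genes, 7 were higher in cortex and 2 in hippocampus (9 and 8 by limma). Wnt10a, a ligand, gave 11.78, 11.56, 11.89, and 11.91 on the cortex arrays and from 9.54 to 10.45, with a median of 9.88, on the hippocampus arrays. Wnt9a, another ligand, spanned 10.59 to 10.65 on cortex, 7.88 to 8.27 on the transgenic arrays, and 9.46 to 9.73 on the ICR arrays, which made the strains of hippocampus differ by −1.45 on the log2 scale (adjusted p = 1.46e-05 by limma).

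Genes that respond to steroid hormones or to activity lay on both sides. Of 12 glucocorticoid-responsive genes, 3 were higher in hippocampus and 1 in cortex (4 and 1 by limma). Nr3c2, the mineralocorticoid receptor, which is abundant in hippocampus, measured 6.34, 6.36, 7.03, and 7.17 on the cortex arrays against 8.22 to 9.19 on hippocampus (median 8.92). Fkbp5, a co-chaperone of the glucocorticoid receptor, stood at 10.37, 10.27, 10.79, and 10.38 on cortex, whereas hippocampus spanned 11.08 to 11.87 around a median of 11.68. Of 20 immediate early genes, 3 were higher in cortex and 2 in hippocampus (6 and 2 by limma). Homer1, a scaffold with an activity-induced short form, was separated by all 5 of its probes, with 10.66 to 10.93 on cortex and 8.89 to 10.0 on hippocampus. Egr1, a zinc finger factor induced by activity, read 11.03 on 5xFAD and 12.40 to 13.03 on the other hippocampus arrays, against 13.21 to 14.01 on cortex, and Jun lay on the hippocampus side (11.54 to 12.23 on cortex and 13.20 to 13.49 on hippocampus). Of 36 insulin-like and neurotrophic genes, 6 were higher in cortex and 3 in hippocampus (7 and 6 by limma). Gfra2, the neurturin receptor, measured 13.96, 14.0, 14.26, and 14.06 on the cortex arrays and from 11.35 to 12.35, with a median of 11.87, on the hippocampus arrays. Igfbp6, a binding protein of insulin-like growth factors, had values of 14.45, 14.22, 14.54, and 14.27 on the cortex arrays against 11.69 to 13.02 on hippocampus (median 12.35). Of 39 matrix genes, 8 were higher in hippocampus and 2 in cortex (13 and 4 by limma), among them Lamb1, a laminin chain (9.51 to 10.26 on cortex and 11.19 to 12.0 on hippocampus). Sdc4, a cell surface proteoglycan, was separated from cortex mainly by the ICR arrays (11.20 to 11.90), since the transgenic arrays (8.66 to 9.08) lay close to cortex (7.96 to 8.43). Of 18 retinoid genes, 1 lay on each side (3 higher in cortex and 2 in hippocampus by limma). The list of 67 ribosomal protein genes gave 1 higher in cortex and 5 in hippocampus (3 and 14 by limma), and that of 90 oxidative phosphorylation genes gave 5 and 2 (6 and 7 by limma).

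**Figure D5:**
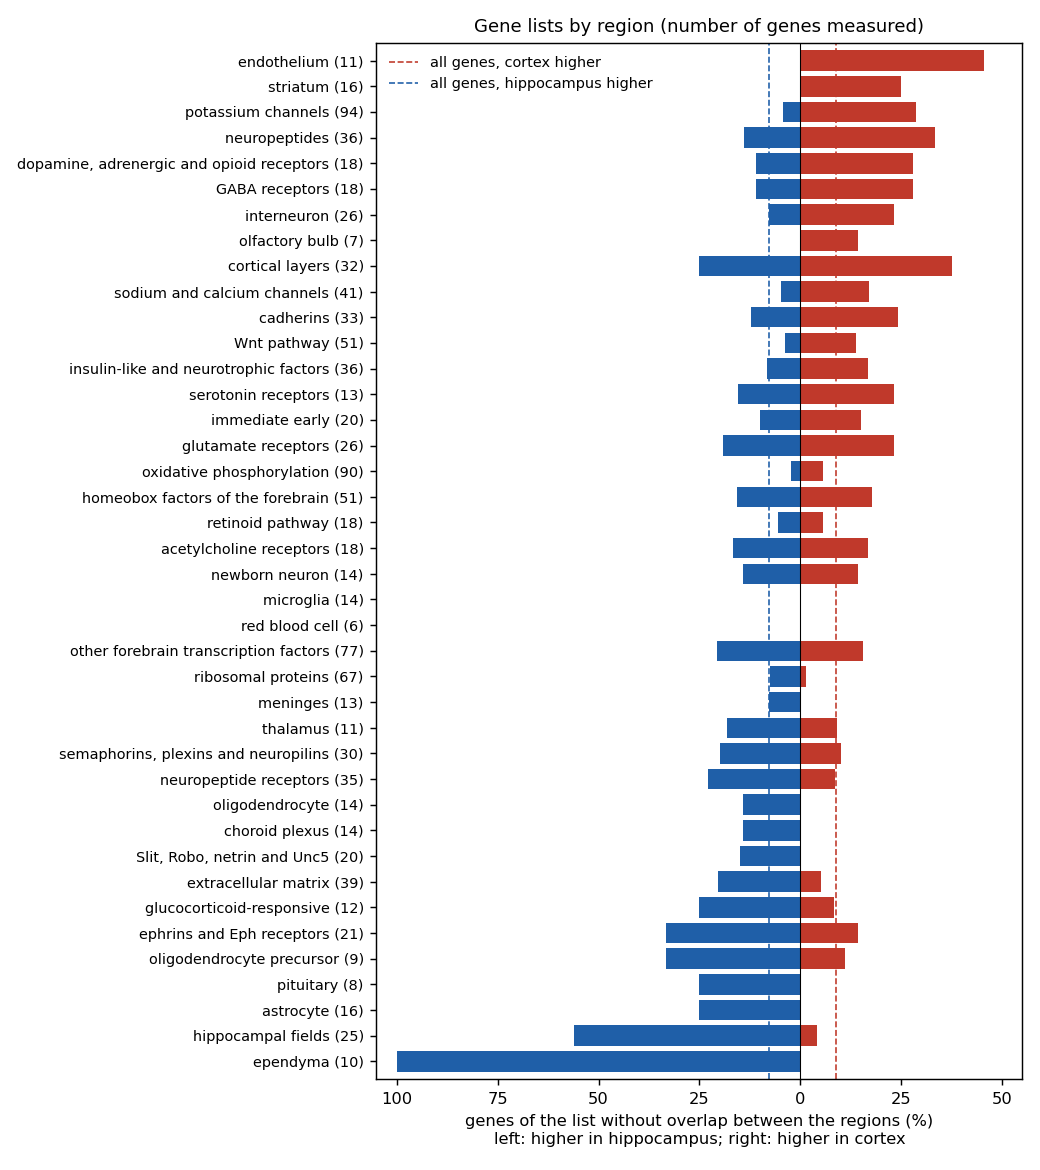
Share of the measured genes of each list (y axis, with the number measured) that did not overlap between the regions, as a percentage on the x axis, to the right for genes higher in cortex and to the left for genes higher in hippocampus. Dashed lines mark the background over all 20036 genes, 8.70% for cortex and 7.67% for hippocampus. All 10 ependyma genes and 14 of 25 hippocampal field genes lie on the hippocampus side, and 27 of 94 potassium channel genes on the cortex side.

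The rule favours genes with narrow ranges within a region, so their ranges are given as a description. Over the 2817 of them well above background on all 12 arrays, the median range was 0.32 on the log2 scale over the 4 cortex ages and 0.62 over the 8 hippocampus arrays, against 0.36 and 0.69 over the 13541 autosomal genes measured on all 12. A range of at least 1 over the cortex ages was found in 95 of the 2817 and in 716 of the 13541. The C57BL/6 and ICR hippocampus arrays differed by limma at an adjusted p under 0.05 in 2282 genes (11.4%), of which 340 were among the genes without overlap, or 10.4% of them. The median level was 9.41 for genes higher in cortex and 9.41 for those higher in hippocampus, against 7.70 for all autosomal genes. By chromosome, as assigned by the assembly GRCm38.p6, the share of genes without overlap ran from 14.4% on chromosome 17 to 19.3% on chromosome 15.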

How the data were processed

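RNA was hybridized to 12 one-colour Agilent Mouse Whole Genome 44K arrays, with the RNA of 3 animals pooled per array. The deposited scanner files give the intensity of each spot, which the authors read with Agilent Feature Extraction (version not given in the sources used here), and flags. The deposited matrix holds linear intensity values that the authors filtered at 1.4-fold over local background and quantile normalized. Its columns do not all share 1 distribution (cortex, NCSTN, and MAPT share one, the ICR arrays another, and 5xFAD has its own), and its log2 was used as an alternative.

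Here log2 of the processed signal was taken without control spots and spots flagged as outliers (110 to 234 per array, kept where a probe had no other spot), spots of a probe were averaged, and values were quantile normalized over the 12 arrays. Of 39429 probes, 27502 (69.8%) matched exactly 1 gene by accession in a RefSeq table of assembly GRCm38.p6, and the probes of each of 20882 genes were averaged. Of these, 20036 are autosomal. A gene has 2 or more probes in 5510 cases. Of 196 genes named by the rule below as separated or as just outside, 48 have 2 or more, and in 28 of them every probe on its own separated the regions.

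Differences by region, and between C57BL/6 and ICR hippocampus, were tested with limma 3.58.1 in R 4.3.3 with Benjamini-Hochberg adjustment over all 20036 genes at 0.05. The region test set cortex against all hippocampus arrays. The strain test came from a 3-group fit of cortex, C57BL/6 hippocampus, and ICR hippocampus. Other steps used Python 3.11.15 with pandas 2.3.3, numpy 2.4.6, and matplotlib 3.10.9. On simulated data for cortex against hippocampus, with 200 of 20036 genes changed by 1 on the log2 scale, limma called 65.0% of the changed and 0.0252% of the unchanged genes, and 70.0% and 0.403% did not overlap. The simulated noise was independent between arrays and held no differences of strain, sex, age, or treatment. The share of unchanged genes without overlap is set by the split into 4 and 8 arrays. These shares are therefore not error rates for the real arrays. The arrays of a group differ in age, model, or treatment, so p-values measure the spread between these pools and not between animals. Precision is limited by how many arrays there are.

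Named genes were, in each direction, the 12 with the widest gap among those well above background on the whole brighter side (leaving out predicted, clone, and Rik names), 2 just inside and 2 just outside the rule, up to 6 separated members of each list by size of the difference, and markers needed to check a tissue label. Some of these genes are not reported here. The members and lists were chosen with earlier results of these data known. Alternatives were scaling to the 75th percentile, normexp with an offset of 50 on the median spot signal (the mean signal planned is not among the columns used here), filters on dim probes, the brightest probe of a gene, the deposited matrix, each strain alone, a 3-group fit, wider gaps, and leaving out each array. Slide and scan are not given in the files used here, so that block was not run.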

Additional observations from a re-analysis of the deposited data

Results flagged for a closer look

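In 274 groups tested, the 4 cortex and the 5 ICR hippocampus arrays of each of 137 named genes, 22 had 1 array far from the others by Dixon's criterion. Chance gives about 1 in 20 where a group holds replicates of 1 condition. Here each array is another age, treatment, or dose, so that rate does not apply. An outlying array cannot be told apart from its condition. Within cortex, Crhr1 read 10.43 on the 1.5-month array against 9.85 to 9.90 on the others, and Mbp read 10.19 on the 17-month array against 10.73 to 10.83 on the others. On the same tissue, Ntf3 read 7.72 on the 22-month array against 6.42 to 6.56 on the others. Among the cortex ages, Rasgef1c read 11.97 on the 4-month array against 12.58 to 12.70 on the others, and Sdc4 read 7.96 on the 22-month array against 8.35 to 8.43 on the others. Tmem212 read 5.93 on the 22-month array against 1.81 to 1.86 on the others, and Ttr read 15.57 on the 17-month array against 5.11 to 6.85 on the others. Within ICR hippocampus, Amigo2 read 15.86 on the Aβ 10 µM array against 7.47 to 8.45 on the others, and Avpr1b read 7.28 on the streptozotocin 2.5 mg/kg array against 6.36 to 6.59 on the others. Calb2 read 6.95 on the streptozotocin 2.5 mg/kg array against 7.84 to 8.14 on the others, and Chrna10 read 5.54 on the scopolamine array against 3.54 to 4.07 on the others. Among the injected animals, Drd2 read 4.86 on the scopolamine array against 3.95 to 4.19 on the others, and Grm8 read 8.15 on the Aβ 10 µM array against 8.55 to 8.62 on the others. Jun read 13.22 on the scopolamine array against 13.44 to 13.49 on the others, and Kcnh5 read 8.41 on the streptozotocin 2.5 mg/kg array against 7.54 to 7.77 on the others. Within ICR hippocampus, Nr3c2 read 8.54 on the Aβ 5 µM array against 8.90 to 9.03 on the others, and Nr4a3 read 4.77 on the Aβ 5 µM array against 5.49 to 5.78 on the others. Otx1 read 2.07 on the Aβ 10 µM array against 2.80 to 3.07 on the others, and Scin read 6.20 on the streptozotocin 2.5 mg/kg array against 5.62 to 5.68 on the others. Among the injected animals, Spink8 read 10.72 on the scopolamine array against 12.26 to 12.64 on the others, and Tacr3 read 5.98 on the streptozotocin 2.5 mg/kg array against 6.62 to 6.74 on the others. Ucn read 2.44 on the Aβ 5 µM array against 1.79 to 1.80 on the others. Ucn, Chrna10, Otx1, and Drd2 were well above background on only 0, 2, 3, and 4 of the 8 hippocampus arrays. Their outliers within ICR hippocampus therefore involve values near background.

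Hippocampus differed between the 3 transgenic C57BL/6 arrays and the 5 ICR arrays in 16 of the 137 named genes by limma at an adjusted p under 0.05. The same test called 2282 of all 20036 autosomal genes (11.4%), a share near that of the named genes. In these 16 genes, the distance from cortex depends on the strain that is set against it. Sex, age, and treatment differ with the strain and cannot be told apart from it. On the log2 scale, C57BL/6 minus ICR by limma, genes higher in C57BL/6 were C1ql2 (1.36, means 9.49 and 8.14, adjusted p = 0.000188), Chrna2 (0.67, means 8.26 and 7.59, adjusted p = 0.0269), and Gfap (1.59, means 11.92 and 10.33, adjusted p = 0.0246). By the same limma fit, others higher in C57BL/6 were Kiss1 (0.99, means 4.37 and 3.38, adjusted p = 0.025), Npy (0.66, means 11.90 and 11.25, adjusted p = 0.0156), and Otx1 (1.59, means 4.34 and 2.75, adjusted p = 0.0128). Kiss1 and Otx1 were well above background on only 5 and 3 of the 8 hippocampus arrays. On the log2 scale, C57BL/6 minus ICR by limma, genes lower in C57BL/6 were Avpr1b (−0.70, means 5.95 and 6.65, adjusted p = 0.039), Chrna7 (−0.48, means 6.99 and 7.47, adjusted p = 0.037), and Crh (−0.91, means 7.51 and 8.42, adjusted p = 0.0166). By the same limma fit, others lower in C57BL/6 were Fkbp5 (−0.47, means 11.32 and 11.79, adjusted p = 0.04999), Gabrd (−0.68, means 11.10 and 11.78, adjusted p = 0.031), and Lhb (−0.91, means 5.58 and 6.48, adjusted p = 0.00332). By the same limma fit, others lower in C57BL/6 were Ntf3 (−1.40, means 9.15 and 10.55, adjusted p = 0.0163), Prdx2 (−0.52, means 14.23 and 14.75, adjusted p = 0.00693), and Sdc4 (−2.85, means 8.84 and 11.69, adjusted p = 9.54e-06). By the same limma fit, others lower in C57BL/6 were Wnt9a (−1.45, means 8.13 and 9.58, adjusted p = 1.46e-05).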

How the results depend on the processing

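The counts moved by over 1.5 times with the hippocampus arrays set against cortex, which differ in strain, sex, age, treatment, and number, and with the size of the gap. Against the 3 C57BL/6 hippocampus arrays alone, 3803 genes were higher in cortex and 2524 higher in hippocampus without overlap, and limma called 1196 and 944. Against the 5 ICR arrays alone, the counts were 3506 and 3577, and limma called 3964 and 3754. Against NCSTN and MAPT alone, a choice made after seeing the data, 4836 and 3438 genes did not overlap. A gap of at least 0.5 on the log2 scale left 329 and 314 genes, and a gap of at least 1 left 115 and 144. Leaving out 1 array at a time gave 1781 to 2200 genes higher in cortex and 1565 to 1885 higher in hippocampus without overlap, and 1849 to 2921 and 1617 to 2618 by limma. With fewer arrays, also for each strain alone, the counts without overlap can only stay or rise, so they are no support for the rule.

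All other alternatives stayed within 1.5 times these counts. Scaling to the 75th percentile gave 1516 and 1705, moving the share higher in cortex from 53.2% to 47.1% and the median difference of all genes to −0.0583. The deposited matrix gave 1630 and 1355, and kept 1362 of the 1693 cortex genes and 971 of the 1495 hippocampus genes that it holds. On that matrix the median difference of the serotonin receptor list turned to −0.3012 and that of the ribosomal protein list to 0.021, and the cause was not tested. Counting every change of sign, 12 of 40 lists had a median difference of the opposite sign under at least 1 alternative, all with a median of at most 0.272 in size, so no direction is read from the medians of these lists. The difference of means changed sign in 0 of the genes recomputed under the alternatives, which include 123 of the 137 named in the text. For genes without overlap, settings that only leave out arrays cannot change the sign, so those settings are no support for it. Sizes depended on the background correction. With normexp, whose offset of 50 draws faint signals together, the fold was over 1.5 times smaller in 48 of these 123 genes and over 1.5 times larger in 0, and of 24 lists with a median difference over 0.2 in size, 11 had one over 1.5 times smaller. By the same measure the deposited matrix gave smaller folds in 7 of 122 genes and larger ones in 2, with Ucn at 1.24 in place of 3.09 and Otx1 at 0.76 in place of 2.19 on the log2 scale. Against C57BL/6 hippocampus alone, 5 were smaller and 4 larger, with Sdc4 at −0.55 in place of −2.33 and Ntf3 at −2.34 in place of −3.21. Leaving out 1 array moved 4 genes this far, Prl without MAPT (−3.08 to −2.02), Kl without the 17-month cortex array (−4.20 to −4.82), and Ccdc153 (−4.73 to −5.53) and Tmem212 (−5.66 to −6.68) without the 22-month one. Signals near background bound the difference for genes not well above background on the dimmer side.

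No paired analysis was possible because the labels give no replicate numbers shared by cortex and hippocampus samples. Pooled RNA, 1 array per condition, and the lack of matched ages, strains, and treatments between the regions limit every comparison here, and no cortex of the transgenic or injected animals was analysed here.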
